A study of Homo sapiens with 36 samples.

Results

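The comparison described here set ribosome footprints of MCF10A-ER-Src cells after 24 h of 4-hydroxytamoxifen against footprints of the same line after 1 h of the drug. It used 4 of the 36 libraries of the series, chosen by their labels as cycloheximide libraries with tamoxifen at these times: replicates 1 and 2 at 1 h and replicates 1 and 2 at 24 h. The 2 tamoxifen libraries at 4 h entered the same fit and share its estimate of the spread. MCF10A is an immortal breast epithelial line, and ER-Src is a Src kinase joined to the hormone-binding part of the oestrogen receptor, which the drug switches on. Every group carried the fusion and 1 µM of the drug, and all footprints were taken after 100 µg/ml cycloheximide for 90 s, which stops elongating ribosomes on their messages. The 1 h libraries are thus an early point of induction and not an uninduced baseline. Uninduced footprints of this line came from 1 library at 0 h (replicate 1) and from ethanol, the vehicle, with 1 library each at 1 h, 4 h and 24 h (all replicate 2), of which those at 1 h and 24 h are compared below. RNA libraries and harringtonine libraries (2 µg/ml for 5 min, a drug that traps ribosomes where translation begins) had 1 library per time, all replicate 1. Only 1 line carries the fusion, and the labels do not say whether replicates were separate cultures, so the p-values measure the spread between these samples, which may be technical.

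Src is a membrane-anchored tyrosine kinase that feeds growth factor and integrin signals into the MAPK, PI3K and STAT3 pathways. Switched on in this line, it is known for an inflammatory response in which NF-κB, interleukin 6 and STAT3 sustain each other while the epithelial cells become transformed. A footprint is a stretch of messenger RNA covered by a ribosome, so the footprint count of a gene moves with the amount of its message and with the number of ribosomes on each message. The levels given below are normalised read counts, CPM, the count of a gene relative to its library total after trimmed mean scaling. A gene was called when edgeR's quasi-likelihood test gave a Benjamini-Hochberg adjusted p under 0.05 over all genes tested.

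Total counts were 1460266 and 1800942 at 1 h and 1632313 and 3343439 at 24 h, with 1 transcript kept per symbol. All 12 markers of basal breast epithelium had counts in these 4 libraries, among them KRT5 (4392 and 4687 CPM at 1 h) and KRT14 (1129 and 1168 CPM). Of 10 luminal breast markers, 7 had counts, with sums of 2104 to 2198 CPM at 1 h and 2629 to 2634 CPM at 24 h. ESR1, a part of the fusion, was the highest of these. Of 16 fibroblast matrix markers, 9 and 10 had counts at 1 h and 10 and 12 at 24 h. Most of their sum (293 to 336 and 275 to 315 CPM) came from FBLN1 and POSTN. DCN was called higher and POSTN lower. Of 15 leukocyte markers, 4 had counts and the defining marker PTPRC had none. Their summed level was 76.5 to 88.3 CPM at 1 h and 128 to 154 CPM at 24 h, carried by CD68 and CD14, and the part of other cells in this was not tested. The endothelial markers PECAM1, CDH5 and VWF were also at 0. SRC stood at 278 and 267 CPM at 1 h and 230.4 and 318 CPM at 24 h (log2 change 0.02, SE 0.17, adjusted p = 0.953), and ESR1 at 1297 and 959 and 1224 and 1204 CPM (0.11, SE 0.18, adjusted p = 0.722). Neither gene passed the test and their groups overlapped, and whether reads of the fusion align to these rows is not given in the labels.

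Between 1 h and 24 h of tamoxifen, 1648 of 9676 genes tested changed (17.0%), of which 959 rose (9.91%) and 689 fell (7.12%). Among these, 770 changed by at least 2-fold, 556 upwards and 214 downwards (512 in all without replicate 2 at 24 h). The median log2 change of all genes tested was 0.03. In bulk samples such as these, fewer cells with a message and less message per cell cannot be told apart. The 2 libraries at 24 h lay above both at 1 h for 31.7% of genes and below both for 27.9%. The count depended on the libraries that entered: it was 675 without replicate 2 at 24 h, 791 without replicate 2 at 1 h and 927 without replicate 1 at 24 h.

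**Figure D1:**
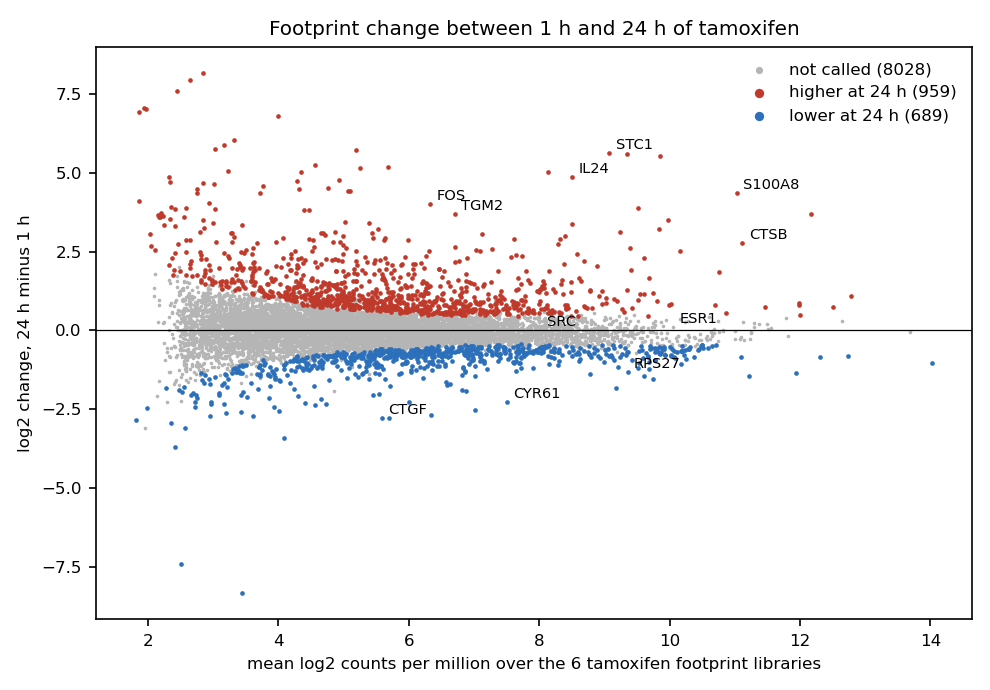
Log2 change in footprints from 1 h to 24 h of tamoxifen (vertical axis) against the mean log2 CPM over the 6 tamoxifen footprint libraries (horizontal axis), 1 point per gene tested. The 959 genes called higher (red) and the 689 called lower (blue) lie above and below 0, and STC1, IL24 and S100A8 are among the highest rises while SRC and ESR1 lie near 0.

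The 15 largest rises among called genes above the median level ran from a log2 change of 3.38 (MT1X, a metallothionein that binds zinc and copper) to 5.64 (STC1). In order of size they were STC1, SERPINB4, SERPINB3, ADAMTS4, FGL1, CLEC2B, IL24, S100A8, FOS, SERPINB1, TGM2, S100A9, SERPINA1, NIPAL4 and MT1X. Being called and not overlapping between 1 h and 24 h was a condition for this choice. RNA of all 15 was also higher at 24 h than at 1 h, in 1 library each, against 50.4% of all genes tested. The tamoxifen footprints at 24 h lay above the ethanol footprints at 24 h for all 15. The choice by high tamoxifen values at 24 h largely sets that count.

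STC1 encodes stanniocalcin 1, a secreted glycoprotein that acts on calcium and phosphate transport. Its footprints stood at 22.5 and 37.3 CPM at 1 h, 117 and 17.1 CPM at 4 h and 1689 and 1346 CPM at 24 h in replicates 1 and 2. Both libraries at 24 h were far above both at 1 h, a 49.8-fold difference (log2 change 5.64, SE 0.58, adjusted p = 1.39e-05). At 4 h the replicates disagreed, with replicate 1 above and replicate 2 below the values at 1 h. Replicate 1 was the higher of the 4 h libraries for all 15 of the largest rises.

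SERPINB3 (chr18:61322431-61329127 on GRCh37, as are the gene positions below) and SERPINB4 (chr18:61304493-61311490) are neighbouring genes of squamous cell carcinoma antigens, inhibitors of cysteine and serine proteases. SERPINB3 stood at 36.9 and 69.1 CPM at 1 h, 353 and 136 at 4 h and 2201 and 2727 at 24 h (log2 change 5.52, SE 0.40, adjusted p = 9.08e-07). SERPINB4 went from 21.2 and 52.1 CPM at 1 h over 162 and 49.4 at 4 h to 1504 and 2112 at 24 h (5.59, SE 0.47, adjusted p = 2.82e-06). These genes are near-identical copies that can share reads, so the split between them is uncertain. Their upstream sequences are shown because the copies are nearly the same there too: of the 250 bases before the RefSeq start, 247 (98.8%) are the same, and the 3 that differ are in capitals (RefSeq, GRCh38.p14; SERPINB3 at chr18:63661894-63662143, minus strand; SERPINB4 at chr18:63644257-63644506, minus strand).
SERPINB3: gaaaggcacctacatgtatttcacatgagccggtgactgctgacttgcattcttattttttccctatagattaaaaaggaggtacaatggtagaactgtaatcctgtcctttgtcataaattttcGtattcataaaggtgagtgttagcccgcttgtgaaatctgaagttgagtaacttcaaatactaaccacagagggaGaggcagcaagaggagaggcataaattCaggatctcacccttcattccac
SERPINB4: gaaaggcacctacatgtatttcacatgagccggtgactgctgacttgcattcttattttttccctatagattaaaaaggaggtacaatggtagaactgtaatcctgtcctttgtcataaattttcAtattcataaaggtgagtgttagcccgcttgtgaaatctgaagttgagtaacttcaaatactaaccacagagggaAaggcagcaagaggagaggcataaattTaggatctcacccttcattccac

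SERPINB1, an inhibitor of neutrophil proteases on another chromosome (chr6:2832566-2842193), rose from 134 and 119 CPM to 1820.2 and 1877 CPM (log2 change 3.87, SE 0.28, adjusted p = 9.08e-07). The circulating inhibitor SERPINA1 (alpha-1 antitrypsin) rose from 215 and 211 to 2571 and 2260.1 CPM (3.50, SE 0.34). In both genes the replicates at each time lay close together and the times were far apart. S100A8 and S100A9, the calcium-binding partners of calprotectin, lie close together on chromosome 1. S100A9 was at 922 and 894 CPM at 1 h, 1481 and 835 at 4 h and 11879 and 11552 at 24 h, and S100A8 at 209 and 337, 481 and 269 and 4850.5 and 6414 CPM. The mean of S100A9 at 24 h was 11715 ± 231 CPM (SD, n = 2), with a log2 change of 3.69 (SE 0.24, adjusted p = 4.76e-07) beside 4.36 (SE 0.29) for S100A8. Not all S100 proteins followed: of 20 S100 proteins and clade B serpins tested, 7 rose and 4 fell. S100A2 fell from 22746 and 19982 to 10833 and 9898 CPM and S100A6 from 7788 and 9205 to 5236 and 4565 CPM. The count of falls was 1 without replicate 2 at 24 h and 2 without replicate 2 at 1 h.

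Other large rises were CLEC2B, a ligand of an activating receptor on natural killer cells (15.7 and 29.6 to 608 and 891 CPM, log2 change 5.02, SE 0.30), and the aggrecan-cutting protease ADAMTS4 (2.73 and 4.39 to 145 and 125 CPM, 5.18, SE 0.46). FGL1, a secreted fibrinogen-like protein known from the acute phase, went from 0.683 and 4.39 to 93.9 and 105 CPM (5.16, SE 0.36). TGM2, which crosslinks proteins, went from 12.98 and 26.9 to 200.1 and 326 CPM (3.69, SE 0.34). NIPAL4, a magnesium transporter of the epidermis, completed the group at 9.56 and 7.68 and 80.3 and 101 CPM (3.41, SE 0.30).

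**Figure D2:**
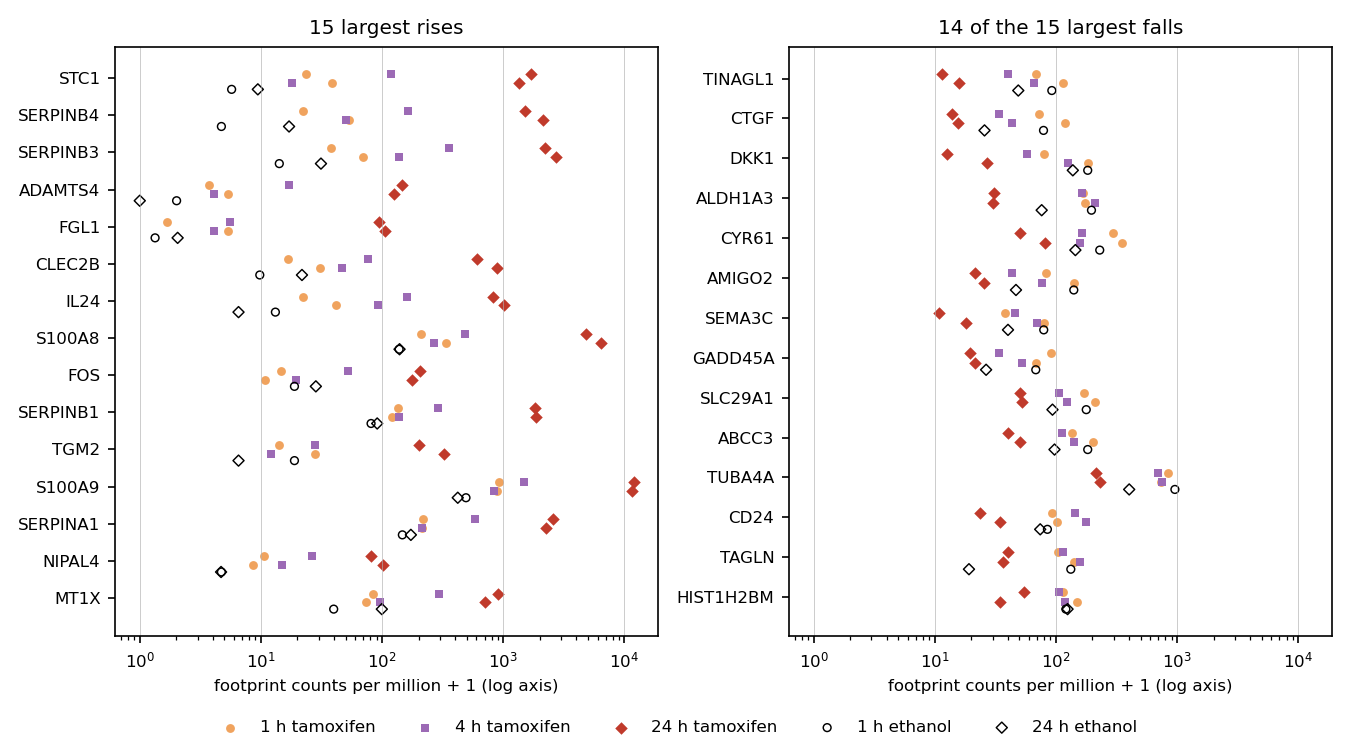
Footprint CPM + 1 (log axis) of the 15 largest rises and 14 of the 15 largest falls in each library: filled symbols are tamoxifen libraries at 1, 4 and 24 h (2 replicates each), open symbols the ethanol libraries at 1 and 24 h (1 each). The 1 h and 24 h tamoxifen symbols do not overlap because the genes were chosen so. In the left panel all 15 ethanol 24 h symbols lie below both tamoxifen 24 h symbols, which the same choice largely sets.

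The 15 largest falls, from a log2 change of −1.64 to −2.77, held matrix-associated secreted proteins and regulators of growth. CTGF (CCN2, chr6:132269316-132272512) and CYR61 (CCN1, chr1:86046444-86050272) are secreted CCN proteins and classical targets of the mechanosensitive YAP and SRF factors. CTGF fell from 71.7 and 118 CPM at 1 h over 32.7 and 42.3 at 4 h to 12.97 and 14.6 at 24 h (log2 change −2.77, SE 0.27, adjusted p = 7.48e-06). CYR61 fell from 293 and 351 over 163 and 158 to 49.4 and 79.6 CPM (−2.28, SE 0.20, adjusted p = 3.18e-06). In both genes the 4 h libraries lay between the other times. Of 19 YAP and SRF targets tested, 10 fell and none rose (median −0.65), among them THBS1, the secreted adhesion protein thrombospondin 1 (2149 and 3186 to 1032 and 926 CPM, −1.45, SE 0.21), and the tropomyosin gene TPM1 (93.6 and 97.1 to 38.9 and 43.6 CPM, −1.20, SE 0.17). The count was 6 without replicate 2 at 24 h. The list's median in ethanol was −0.48 in 1 library per time.

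DKK1, a secreted WNT antagonist, fell from 79.3 and 182 to 11.7 and 25.9 CPM (log2 change −2.69, SE 0.42, adjusted p = 0.000523). TINAGL1, a matrix protein, stood at 67.6 and 112 and 10.5 and 14.9 CPM (−2.77, SE 0.31), and the retinoic acid-producing enzyme ALDH1A3 at 165 and 172 and 29.6 and 29.3 CPM (−2.52, SE 0.18, adjusted p = 9.08e-07). For ALDH1A3 the replicates were nearly equal at each time, while DKK1 and TINAGL1 were higher in replicate 2 at both. The contractile genes TAGLN (103 and 139 to 39.5 and 35.7 CPM, −1.71, SE 0.21) and MYL9 (28.01 and 25.8 to 6.79 and 7.62 CPM, −1.87, SE 0.31) also fell. Both fell in ethanol too, TAGLN from 132 to 18.2 CPM and MYL9 from 24.7 to 2.63 CPM. GADD45A, a stress-induced growth inhibitor, fell by 2.00 on the log2 scale (SE 0.25) from 90.9 and 68.00 CPM. Further falls were AMIGO2, SEMA3C, SLC29A1, ABCC3, TUBA4A, CD24 and HIST1H2BM. The row deposited for CD24 is placed on a copy on chromosome Y, and reads of near-identical copies cannot be told apart.

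Immediate-early genes, many of them transcription factors, respond to growth signals within minutes. Of 21 tested, 12 rose, 1 fell and 8 were not called (median log2 change 0.98). FOS stood at 13.7 and 9.87 CPM at 1 h, 51.05 and 18.3 at 4 h and 204 and 174 at 24 h (log2 change 4.02, SE 0.37, adjusted p = 4.34e-06), JUNB at 132 and 76.2, 195 and 161 and 421 and 340.5 CPM (1.88, SE 0.22, adjusted p = 4.70e-05). DUSP1, the phosphatase that switches MAP kinases off, was at 140.1 and 116, 392 and 284 and 678 and 685 CPM (2.42, SE 0.19), and ZFP36, which destabilises cytokine messages, rose by 1.94 (SE 0.20). For these genes the group means rose from 1 h over 4 h to 24 h, and the 1 h and 24 h libraries did not overlap. Uninduced FOS stood at 38.2 CPM at 0 h and at 17.9, 18.7 and 27.4 CPM in ethanol at 1, 4 and 24 h, above both tamoxifen libraries at 1 h. Uninduced DUSP1 stood at 203 CPM at 0 h and at 138, 176 and 229 CPM in ethanol. Both genes were higher at 24 h of tamoxifen than in any of these. In JUNB and ZFP36 the tamoxifen libraries at 1 h lay within or above the uninduced range. MYC rose from 158 and 157 to 364 and 355 CPM, and in ethanol it went from 199 to 412 CPM. KLF4 was the member that fell (19.8 and 8.77 to 3.71 and 1.22 CPM, −2.70, SE 0.56), a call lost without replicate 2 at 24 h or replicate 1 at 1 h. Among 17 MAPK feedback and output genes, 3 rose and 1 fell. The rises were the phosphatase DUSP6 (33.5 and 30.7 to 243 and 167 CPM, 2.66, SE 0.25), the Ras pathway inhibitor SPRED1 (1.81, SE 0.24) and PHLDA1 (1.24, SE 0.22), and the fall was cyclin D1 (CCND1, 251 and 299 to 145 and 154 CPM). CCND1 also fell in ethanol, from 329 CPM at 1 h to 170 CPM at 24 h. DUSP6 stood at 86.8 CPM at 0 h and at 59.1, 53.6 and 66.6 CPM in ethanol at 1, 4 and 24 h. DUSP6 and PHLDA1 were lower at 1 h of tamoxifen than in every uninduced library, and SPRED1 was not.

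Inflammatory mediators rose in 9 of 15 tested, and 2 fell (median 1.11). The other members of this list of 22, IL6 among them, did not pass the count filter and were not tested. IL24, a cytokine of the interleukin 10 family (chr1:207070788-207077484), stood at 21.2 and 40.6 CPM at 1 h, 159 and 92.3 at 4 h and 821 and 1019 at 24 h (log2 change 4.87, SE 0.30, adjusted p = 3.30e-07). IL1B was at 126 and 131, 557 and 718 and 277 and 316 CPM (1.21, SE 0.17, adjusted p = 0.000235), and IL1A at 88.8 and 75.1, 224 and 259 and 156 and 195 CPM (1.11, SE 0.17). Both interleukin 1 genes were higher at 24 h than at 1 h, with their highest tamoxifen libraries at 4 h. The uninduced libraries were also above 1 h of tamoxifen: IL1B stood at 289.7 CPM at 0 h and at 344, 387 and 158 CPM in ethanol at 1, 4 and 24 h, and IL1A at 150.4, 193, 185 and 131 CPM. For both, the 24 h tamoxifen libraries lay within the range of the uninduced ones or close to it. CCL20, which attracts lymphocytes and dendritic cells, rose from 58.1 and 34.00 to 122 and 113 CPM (1.37, SE 0.21), and CSF3, the granulocyte growth factor, from 41.7 and 18.6 to 145 and 89.3 CPM. The falls were the neutrophil chemokine IL8 (44.4 and 14.3 to 6.18 and 6.40 CPM, −2.16, SE 0.45) and TNFAIP3, an inhibitor of NF-κB (84.7 and 34.5 to 22.2 and 29.6 CPM, −1.13, SE 0.35). In both, replicate 1 at 1 h was far above replicate 2. Neither was called without replicate 1 at 1 h or without replicate 2 at 24 h, and 1 of the 2 was called without replicate 1 at 24 h.

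Of 21 genes of the STAT3 pathway and its feedback, 11 rose and 1 fell (median 0.85). The fall, PIAS3, was lost when any 1 library was left out. STAT3 itself went from 217 and 174 to 416 and 484 CPM (log2 change 1.21, SE 0.19, adjusted p = 0.000629) and OSMR, a receptor subunit that signals to it, from 121 and 116 to 359 and 301 CPM (1.47, SE 0.19). SOCS3, the feedback inhibitor of the pathway, was at 41.7 and 19.2 CPM at 1 h, 45.3 and 21.1 at 4 h and 155 and 181 at 24 h (2.51, SE 0.31, adjusted p = 7.72e-05). The ethanol libraries held 2.36 CPM at 1 h and 4.48 at 24 h, so both tamoxifen libraries at 1 h were already above ethanol. BCL3, CEBPB, CEBPD, BCL6 and JAK2 also rose, with log2 changes from 0.85 (CEBPD) to 2.27 (BCL6).

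Interferon-induced genes rose in 16 of 22 tested and fell in none (median 1.49). The count fell to 7 without replicate 2 at 24 h and to 10 without replicate 2 at 1 h. IRF9, the DNA-binding subunit of the factor that interferons activate, stood at 8.20 and 5.48 CPM at 1 h, 19.5 and 17.1 at 4 h and 42.6 and 35.4 at 24 h (log2 change 2.51, SE 0.30, adjusted p = 5.92e-05). The sensor of viral RNA DDX58 (RIG-I) was at 8.20 and 8.77, 22.9 and 25.5 and 38.3 and 69.2 CPM (2.70, SE 0.33). In both genes the 4 h libraries lay between those at 1 h and 24 h. The membrane proteins IFITM3 (541 and 534 to 1377 and 1032 CPM, 1.16, SE 0.18) and IFITM1 (28.7 and 26.3 to 135 and 105 CPM, 2.11, SE 0.32) are near-identical copies in part and can share reads. MX1, an antiviral GTPase, rose from low counts (0.683 and 1.10 CPM at 1 h, 10.5 and 6.40 at 24 h).

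Sequence upstream of the start was searched for 2 motifs that are their own reverse complements, TGANTCA (the AP-1 site of FOS and JUN) and TTCNNNGAA (the site of STAT factors), within 250 bases before each RefSeq start. Of 768 genes that rose and had an entry, 9.64% held the AP-1 motif and 10.68% the STAT motif. Among 560 that fell the shares were 7.50% and 7.50%, and among all 8020 tested genes with an entry 5.80% and 7.34%. No match was found in the windows of the 4 largest rises with an entry (SERPINB4, SERPINB3, IL24 and S100A8) or of CTGF and TINAGL1, which says only that these letters are not there. Of 50 named genes that rose and had an entry, 5 held the STAT motif and 2 the AP-1 motif. The windows of SERPINB1 and IRF9, the members of these with the largest changes, are printed with the match in capitals (RefSeq, GRCh38.p14; SERPINB1 at chr6:2841864-2842113, minus strand; IRF9 at chr14:24161015-24161264, plus strand). The match begins 208 bases before the start in SERPINB1 and 63 bases before it in IRF9, and whether a factor binds there was not measured.
SERPINB1: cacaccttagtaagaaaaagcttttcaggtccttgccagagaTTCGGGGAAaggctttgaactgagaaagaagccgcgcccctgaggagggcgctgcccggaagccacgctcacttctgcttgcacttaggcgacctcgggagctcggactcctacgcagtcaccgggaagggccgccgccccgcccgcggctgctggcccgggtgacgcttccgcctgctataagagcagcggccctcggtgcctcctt
IRF9: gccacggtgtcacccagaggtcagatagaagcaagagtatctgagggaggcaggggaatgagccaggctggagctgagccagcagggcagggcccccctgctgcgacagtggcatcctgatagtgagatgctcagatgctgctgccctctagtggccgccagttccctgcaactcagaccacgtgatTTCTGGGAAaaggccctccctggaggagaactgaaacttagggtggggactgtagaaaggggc

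Hypoxia-response genes, targets of the HIF transcription factors, rose in 14 of 21 tested and fell in none (median 1.36). HIF1A, the oxygen-regulated subunit, rose from 229 and 222 CPM at 1 h over 510.5 and 311 at 4 h to 1273 and 1490.1 at 24 h (log2 change 2.62, SE 0.21, adjusted p = 2.32e-06). NDRG1, a stress-responsive protein of differentiating cells, stood at 249 and 226, 375 and 255 and 2704 and 1693 CPM (3.21, SE 0.24, adjusted p = 1.34e-06), and the angiogenic factor VEGFA at 21.9 and 15.4, 39.6 and 24.6 and 104 and 70.7 CPM (2.22, SE 0.28). All 3 were highest in the 24 h libraries, with no overlap with 1 h. The hydroxylase EGLN3 and the mitochondrial receptors BNIP3 and BNIP3L rose by 2.92 (SE 0.39), 1.36 (SE 0.19) and 2.18 (SE 0.24). PFKFB3, which makes the activator of glycolysis, rose from 40.3 and 56.5 to 301 and 269 CPM (2.54, SE 0.20). Of 23 genes of glycolysis, 7 rose and 1 fell (median 0.29), including PGK1 (763 and 576 to 1246 and 1335 CPM) and LDHA (3761 and 2501 to 5266 and 5616 CPM, 0.80, SE 0.19). That count was 3 without either library at 24 h or without replicate 2 at 1 h, and 4 without replicate 1 at 1 h. The glucose transporter SLC2A3 rose most of these, from 0.683 and 0.548 to 8.65 and 7.62 CPM (3.60, SE 0.87), and the fall, PFKP, was lost without any 1 library. Of 34 genes of oxidative phosphorylation, 0 rose and 3 fell (median −0.13), of which 2 were called without replicate 1 at 1 h and 0 without any other library.

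Enzymes of cholesterol synthesis rose in 15 of 22 tested with no falls (median 0.69). The largest were HSD17B7 (10.9 and 6.03 to 37.7 and 33.2 CPM, log2 change 2.08, SE 0.31) and MSMO1 (126 and 145 to 411 and 361 CPM, 1.5, SE 0.17, adjusted p = 4.50e-05), while HMGCS1, an early enzyme of the pathway, went from 79.9 and 99.8 to 166 and 208 CPM (1.06, SE 0.17). These genes were also higher at 24 h in ethanol: MSMO1 went from 133 to 262 CPM there and the list's median was 0.43. Tested against the ethanol change, 0 of the 22 were called. The count of rises was 7 without replicate 1 at 24 h, 9 without replicate 2 at 24 h and 9 without replicate 2 at 1 h.

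Keratins and desmosomal proteins, which give epithelia their strength, rose in 13 of 22 tested and fell in 1 (median 0.65). KRT6A and KRT6B, keratins of activated epidermis, rose from 764 and 928 to 2900.5 and 3262 CPM (log2 change 1.86, SE 0.19, adjusted p = 1.03e-05) and from 8.88 and 8.77 to 59.9 and 62.8 CPM (2.79, SE 0.27). They are near-identical copies that can share reads. KRT16 stood at 12.3 and 19.7 CPM at 1 h, 98.7 and 59.7 at 4 h and 41.4 and 71.3 at 24 h. Most others changed by less, such as KRT5 (4392 and 4687 to 6633 and 8478 CPM, 0.74, SE 0.16) and the desmosome plaque protein DSP (0.68, SE 0.18). The hair keratin KRT81 was the fall, from 5207 and 4494 to 1763 and 2014 CPM (−1.36, SE 0.16, adjusted p = 4.92e-05). The count of rises was 4 without replicate 2 at 24 h, 8 without replicate 1 at 24 h, 8 without replicate 2 at 1 h and 7 without replicate 1 at 1 h.

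Of 17 invasion proteases and their inhibitors, 9 rose and 2 fell (median 0.85). The lysosomal cysteine proteases led: CTSL1 stood at 148 and 175 CPM at 1 h, 245 and 208 at 4 h and 1419 and 1412 at 24 h (log2 change 3.13, SE 0.17, adjusted p = 2.05e-07), the smallest p of all genes tested. CTSB stood at 745 and 741, 1048 and 609.7 and 5598 and 4593 CPM (2.78, SE 0.23, adjusted p = 2.32e-06). In both genes the 4 h libraries lay near those at 1 h, and both libraries at 24 h were far above all others. The membrane protease MMP14 rose from 164 and 217 to 545 and 519 CPM (1.48, SE 0.16) and SERPINE2, an inhibitor of thrombin and plasminogen activators, from 215 and 172 to 961 and 810.1 CPM (2.20, SE 0.18). The metalloprotease inhibitor TIMP3 fell (110.0 and 97.6 to 50.03 and 38.4 CPM), and the falls on the list were 1 without replicate 2 at 24 h or replicate 1 at 1 h. Among 13 mesenchymal genes, 3 rose and 1 fell: the matrix protein tenascin C (TNC, 30.7 and 42.2 to 366 and 254 CPM, 3.06, SE 0.39), the collagen crosslinker LOX (2.20, SE 0.26) and the low transcription factor SNAI1 (1.37 and 1.10 to 13.6 and 10.97 CPM) rose, and TGFBI fell (−0.84, SE 0.16). Without replicate 1 at 1 h, 3 genes fell. Of 20 laminins, integrins and hemidesmosome genes, 5 rose, with ITGA2, a collagen receptor subunit, from 181 and 186 to 565 and 545 CPM, and 2 fell. The count of falls was 0 without replicate 2 at 24 h and 1 without replicate 2 at 1 h, and that of rises was 3 without replicate 2 at 24 h. Of 16 cell junction genes, 2 rose and 3 fell, and the falls were 0 without replicate 2 at 24 h and 1 without replicate 1 at 24 h or replicate 2 at 1 h. The tight junction protein CLDN1 stood at 37.6 and 27.97 CPM at 1 h, 123 and 128 at 4 h and 14.8 and 11.3 at 24 h, so that its fall came after a higher level at 4 h.

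Lists of stress and growth control moved little or in both directions. Of 23 amino acid stress genes, 1 rose and 4 fell (median −0.22): DDIT4, an inhibitor of mTOR signalling, rose from 84.7 and 87.2 CPM to 767 and 525 CPM (log2 change 2.90, SE 0.25, adjusted p = 3.18e-06), while the amino acid transporter SLC7A5 fell from 900.5 and 1168 to 556 and 538 CPM (−0.92, SE 0.16). Uninduced DDIT4 stood at 204 CPM at 0 h and at 144, 171 and 446 CPM in ethanol at 1, 4 and 24 h. Both tamoxifen libraries at 1 h lay below these values. The tamoxifen change of DDIT4 exceeded its ethanol change by 1.27 on the log2 scale (SE 0.40), which was not called. The falls were 1 without replicate 1 at 24 h, 2 without replicate 2 at 24 h or at 1 h, and 7 without replicate 1 at 1 h. Of 22 endoplasmic reticulum chaperones and stress genes 1 rose and 3 fell, and the falls were 0 without either library at 24 h or replicate 2 at 1 h. The rise (ERO1L) was lost without replicate 1 at 24 h. Of 15 heat shock proteins 1 rose (HSPA4L, lost without either replicate 2, and 2 without replicate 1 at 1 h), and of 17 p53 targets and cell cycle inhibitors 2 fell, GADD45A and CDKN2C, with 1 or 3 falls when a library was left out. Among 26 ribosome assembly genes 2 rose, MYC and DDX21, and 2 fell, RRP9 and NOP56, with 0 to 1 falls and 1 to 2 rises when a library was left out.

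Of 17 genes of TGF-beta signalling, 2 rose and 4 fell. INHBA, the activin A subunit, fell from 24.6 and 12.6 to 4.94 and 4.57 CPM (−1.94, SE 0.42), and the differentiation inhibitor ID1 rose from 222 and 315 to 666 and 631 CPM (1.27, SE 0.20). Uninduced ID1 stood at 452 CPM at 0 h and at 517, 496 and 626 CPM in ethanol at 1, 4 and 24 h. Both tamoxifen libraries at 1 h lay below all of these, and those at 24 h lay close to ethanol at 24 h. The falls were 0 without replicate 2 at 24 h, 2 without replicate 1 at 24 h or at 1 h, and the rises 1 without either library at 24 h or replicate 2 at 1 h. Of 22 actin contractile genes 1 rose and 5 fell. The rise, TLN1, was lost without any 1 library, and the falls were 3 without either library at 24 h or replicate 2 at 1 h. The median of these 22 was −0.06 under tamoxifen and −0.40 in ethanol, where 1 of the 22 was above 0 (1 library per time). Of 8 epidermal differentiation genes 3 rose, S100A8, S100A9 and the transglutaminase TGM1 (14.3 and 15.4 to 82.1 and 65.2 CPM, 2.28, SE 0.23), and 2 fell, SBSN (25.96 and 13.2 to 3.09 and 2.74 CPM) and SPRR1B, 1 of them without replicate 1 at 24 h. Of 6 oestrogen receptor targets tested, NRIP1 rose (0.85, SE 0.24, lost without either replicate 2) and CCND1 fell (−0.88, SE 0.16). The log2 ratio of CCND1 in ethanol was −0.95.

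**Figure D3:**
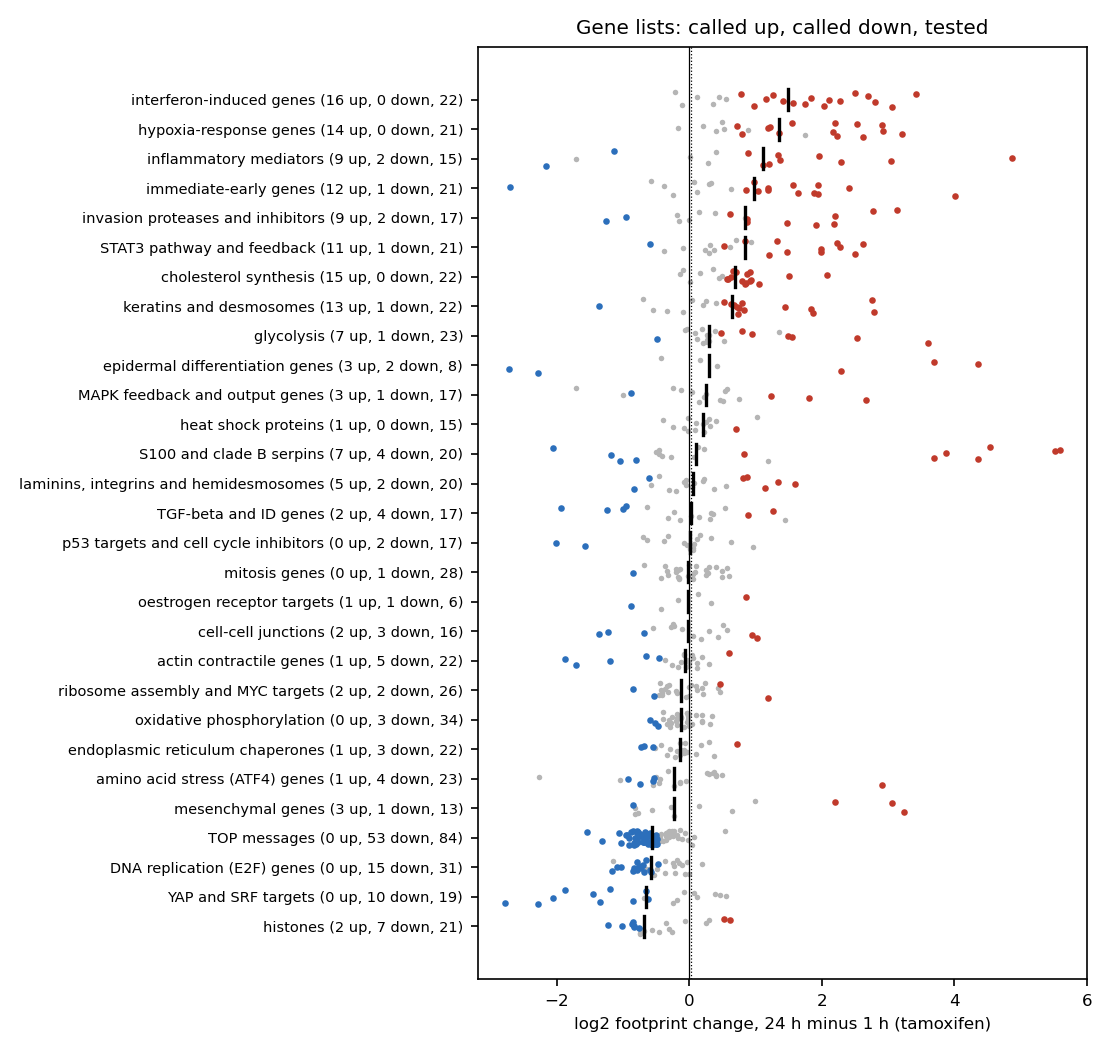
Log2 footprint change from 1 h to 24 h of tamoxifen for each tested member of 29 gene lists, ordered by the list's median (black bar); red points were called higher, blue points called lower and grey points not called, and the dotted line marks the median of all genes tested (0.03). Interferon-induced and hypoxia-response genes stand at the top with medians of 1.49 and 1.36, and histones, YAP and SRF targets, DNA replication genes and TOP messages at the bottom.

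DNA replication genes, which E2F factors drive into S phase, were lower at 24 h: 15 of the 31 tested fell and 0 rose (median −0.57). PCNA, the sliding clamp of replication, fell from 656 and 840.1 to 301 and 368 CPM (log2 change −1.16, SE 0.18, adjusted p = 0.000412), the replicative helicase subunit GINS2 from 72.4 and 88.8 to 41.4 and 38.4 CPM (−1.03, SE 0.18) and the flap nuclease FEN1 from 162 and 174 to 97.6 and 97.5 CPM (−0.79, SE 0.15). The count without replicate 1 at 1 h was 17. The list was also lower at 24 h in ethanol (median −0.44), and none of its genes was called against the ethanol change. The count was 7 without replicate 1 at 24 h, 8 without replicate 2 at 24 h and 8 without replicate 2 at 1 h. Of 28 mitosis genes, 1 fell and none rose, with 5 falls without replicate 2 at 1 h. Their median of −0.01 covered opposite replicates. In replicate 1 the ratio of 24 h to 1 h was above 1 in 2 of 28 genes (median log2 −0.61), and in replicate 2 in 26 of 28 (median 0.58). The ethanol libraries, also replicate 2, had 21 of 28 above 1 (median 0.48). Of 21 histone genes, 7 fell and 2 rose (median −0.68), a count of falls that was 0 without replicate 2 at 24 h and 1 without replicate 2 at 1 h. Rises were 0 without either library at 24 h or replicate 2 at 1 h and 1 without replicate 1 at 1 h. Histone copies also share reads.

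TOP messages code for ribosomal proteins and elongation factors and begin with a run of pyrimidines (the 5′ terminal oligopyrimidine tract) through which mTOR is known to control their translation. Footprints fell in 53 of 84 tested and rose in 0 (median −0.56), and both libraries at 24 h lay below both at 1 h in 77. RPS27 stood at 743 and 872 CPM at 1 h, 794 and 880.4 at 4 h and 304 and 341 at 24 h (log2 change −1.32, SE 0.16, adjusted p = 6.09e-05). EEF1B2, a subunit of the elongation factor exchange complex, stood at 956 and 1294, 909 and 1213 and 342 and 427 CPM (−1.54, SE 0.20), and RPL37A at 1358 and 1416, 1439.6 and 1405 and 663 and 668 CPM (−1.06, SE 0.15). The libraries at 1 h and 4 h overlapped in these genes and both libraries at 24 h were lower. The count was 21 without replicate 1 at 24 h, 23 without replicate 2 at 24 h and 22 without replicate 2 at 1 h. Processed pseudogenes of ribosomal proteins are many, and how reads shared with them were counted is not given in the labels. In ethanol RPS27 went from 992 to 629 CPM, EEF1B2 from 1310 to 725 CPM and RPL37A from 1445 to 1141 CPM, in 1 library per time. The tamoxifen changes differed from these by −0.66, −0.69 and −0.72 on the log2 scale. None of the TOP messages was called against the ethanol change.

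The starts of the 4 TOP members with the smallest p and, for contrast, of S100A9 are printed because the tract is what defines the class. Each line gives the 10 bases before and the 20 bases from the RefSeq start on (GRCh38.p14), with the unbroken run of pyrimidines at the start in capitals where the first base is C. EEF1B2 has 2 starts in the table, and its second line is the one with a tract.
RPS27 (chr1:153990752-153990781, plus strand): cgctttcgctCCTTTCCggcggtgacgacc
EEF1B2 (chr2:206159599-206159628, plus strand): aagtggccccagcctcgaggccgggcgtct
EEF1B2 (chr2:206159885-206159914, plus strand): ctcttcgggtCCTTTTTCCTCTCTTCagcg
RPL37A (chr2:216498834-216498863, plus strand): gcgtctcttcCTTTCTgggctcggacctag
RPS12 (chr6:132814559-132814588, plus strand): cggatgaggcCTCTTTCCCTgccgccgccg
S100A9 (chr1:153357844-153357873, plus strand): cagctctggcaaacactctgtgtggctcct
A start with C followed by 4 pyrimidines was present in 49 of the 66 tested TOP members with an entry (74.24%) and in 7.59% of the 8020 tested genes with one. Among genes that fell, it was present in 31 of 40 on the list and in 47 of 520 off it (9.04%). Among genes that rose it was present in 45 of 768 (5.86%).

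RNA of the TOP messages was higher at 24 h than at 1 h in 66 of the 84. In the single pair of RNA libraries under tamoxifen their median log2 ratio was 0.15, beside −0.61 and −0.53 for footprints in replicates 1 and 2, and RNA of RPS27 was 715 CPM at 1 h and 944 CPM at 24 h. RNA of EEF1B2, the called member with the largest fall in footprints, was lower, at 2121 and 1606 CPM. The harringtonine ratio had a median of 0.26 against 0.10 over all genes tested. In ethanol the footprint ratio was −0.23 and the RNA ratio −0.23. The change in footprints beyond the change in RNA (ribosome loading) was below 0 in 81 of the 84, with a median of −0.74 against 0.03 over all genes. By edgeR's quasi-likelihood test no loading change passed among 10848 genes (0%), with 852 at an unadjusted p under 0.05. At that unadjusted level 63.1% of TOP messages were lower, against 4.05% of all genes, and none was higher. DESeq2 called 26 genes, 25 lower and 1 higher, and 22 of the 25 were TOP messages, led by RPS27 (log2 −1.74, SE 0.32, adjusted p = 2.17e-05). The RNA arm had 1 library per time, so its spread was assumed to be that of the footprints.

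**Figure D4:**
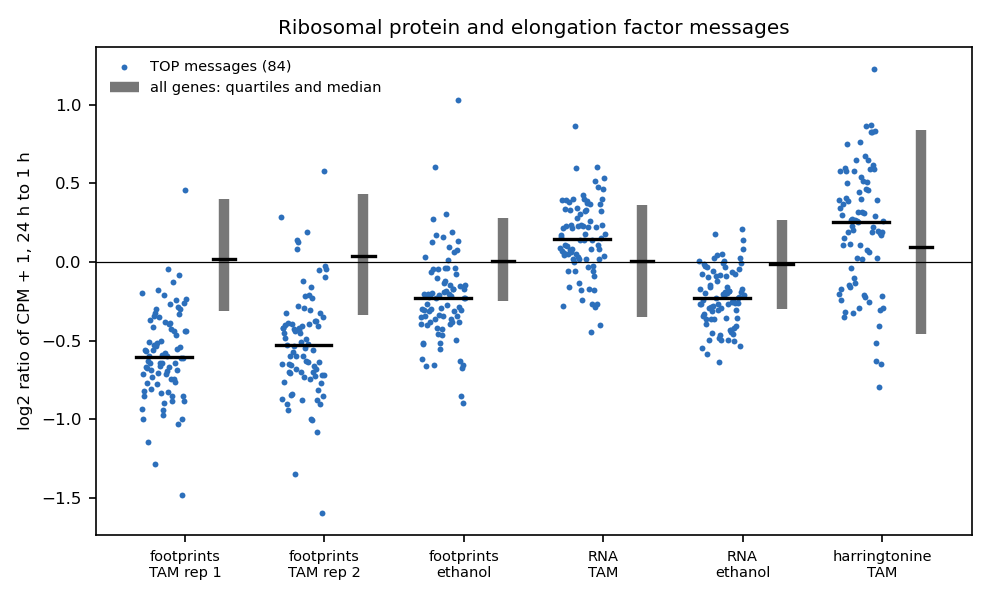
Log2 ratio of CPM + 1 from 24 h to 1 h for the 84 tested TOP messages (blue points, black bar at the median) beside the median and quartiles of all genes tested (grey), in each pair of libraries. Footprints under tamoxifen lie below 0 in both replicates (medians −0.61 and −0.53), while the RNA median under tamoxifen is 0.15.

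Over all called genes, RNA and footprints differed in the same direction for most. Of the 959 genes whose footprints rose, 94.6% had a higher RNA level at 24 h than at 1 h, against 50.4% of all genes tested, and of the 689 that fell 83.5% had a lower one, against 49.4%. These are counts in 1 pair of RNA libraries, with no replicate. In harringtonine the median ratio was 0.89 for genes that rose and −0.34 for genes that fell.

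To see which changes were larger than those of cells kept in ethanol, the change under tamoxifen was tested against the change under ethanol from 1 h to 24 h, as an interaction. This called 161 of 9676 genes (1.66%), with 137 higher (1.42%) and 24 lower (0.248%) under tamoxifen. Of the 137, 129 had themselves risen from 1 h to 24 h, and 101 had an ethanol ratio below 1. Both counts are largely set by the choice, which takes genes whose tamoxifen change exceeds their ethanol change. Over all 9676 genes tested, 959 rose and 4894 had an ethanol ratio above 1. The median log2 ethanol ratio of all genes was 0.005, so ratios above and below 1 were about equally common. The ethanol arm had 1 library per time and its spread was assumed to be that of the tamoxifen libraries. The number called was 81 without replicate 1 at 24 h and 58 without replicate 2 at 24 h.

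Among the 15 largest rises 10 were called in this test. IL24 moved from 12.2 to 5.53 CPM in ethanol, and the difference from its tamoxifen change was 6.0 on the log2 scale (SE 0.67, adjusted p = 0.000389). For S100A9 the ethanol values were 491 and 420.0 CPM (difference 3.92, SE 0.39, adjusted p = 0.000271), and for CTSL1 180.4 and 145 CPM (3.45, SE 0.28, adjusted p = 4.72e-05). In ethanol these genes were lower at 24 h than at 1 h. STC1 was at 4.73 and 8.43 CPM in ethanol and was not called (4.81, SE 1.6, adjusted p = 0.169), although both tamoxifen libraries at 24 h were far above it. The group with the most calls was that of invasion proteases, with 8 of 17 higher under tamoxifen, followed by inflammatory mediators (6 of 15) and S100 proteins and serpins (5 of 20). The urokinase receptor PLAUR stood at 119 and 131 CPM at 1 h and 252 and 205 at 24 h of tamoxifen, against 126 and 42.1 CPM in ethanol (2.44, SE 0.28, adjusted p = 0.000389).

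Of the 15 largest falls, 14 also had an ethanol ratio below 1, and 3 were called beyond ethanol: CYR61 (−1.61, SE 0.32, adjusted p = 0.0195), CD24 (−1.52, SE 0.32) and HIST1H2BM (−1.69, SE 0.34). CTGF went from 78.02 to 24.8 CPM in ethanol, and its difference was not called (−1.12, SE 0.42, adjusted p = 0.232). TAGLN went from 132 to 18.2 CPM in ethanol, a larger fold than under tamoxifen, with an uncalled difference of 1.15 (SE 0.36). KRT81 went in ethanol from 4165 to 6336 CPM while it fell under tamoxifen (−1.97, SE 0.27, adjusted p = 0.00143).

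**Figure D5:**
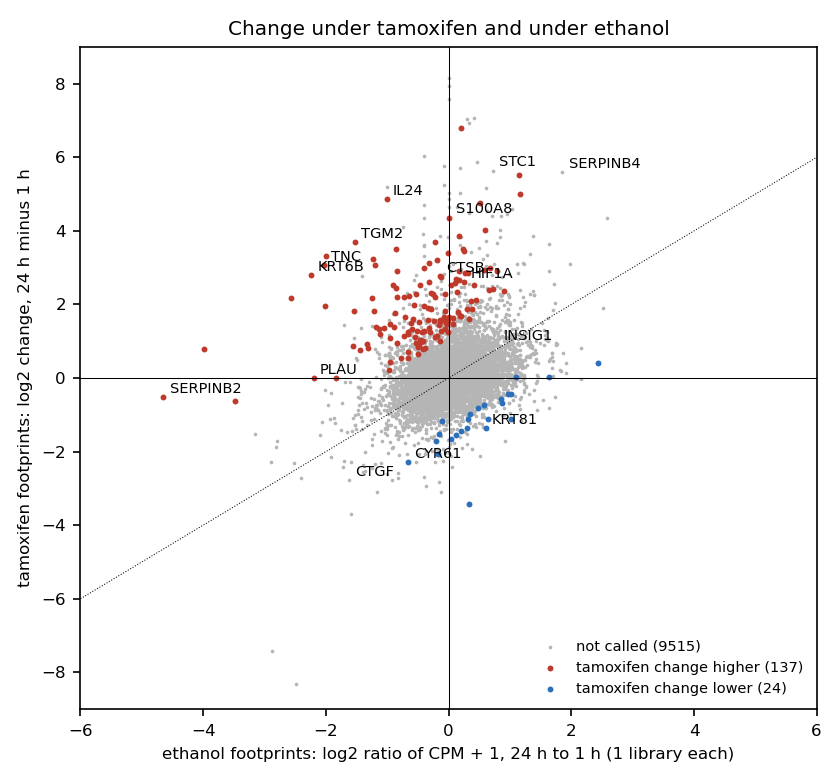
Log2 footprint change from 1 h to 24 h under tamoxifen (vertical axis, edgeR fit) against the log2 ratio of CPM + 1 in ethanol (horizontal axis, 1 library per time), 1 point per gene, with the dotted line marking equal change. The 137 genes with a higher tamoxifen change (red) lie above the line, many with an ethanol ratio below 0, and the 24 with a lower one (blue) lie below it.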

How the data were processed

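The values are raw counts of reads per transcript (1 text file per library, column 5), deposited by the authors. Alignment with TopHat to hg19 is named in the submitters' processing notes. The counting program, the counted region and the treatment of reads with several matches are not given in the sources used here. Of 36499 transcript rows, the 1 with the highest mean count was kept for each of 19137 symbols (7636 symbols had several), which reduces double counting of shared reads. The totals of the libraries used ran from 163091 (harringtonine) to 3628087 counts, and genes with few counts are measured less precisely.

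Genes passed edgeR's filterByExpr (count minimum 10, total 15), were scaled by trimmed mean of M values (TMM) and tested with the quasi-likelihood test in R 4.3.3 with edgeR 4.0.16, at a Benjamini-Hochberg adjusted p under 0.05. The fit of 24 h against 1 h held 6 libraries in 3 groups (3 residual degrees of freedom, biological coefficient of variation 12.28%). The changes beyond ethanol and beyond RNA were interaction terms, and a single library per time was assumed to vary like the others. Log2 ratios of single libraries used CPM + 1. Replicates of 1 group differed by more than sampling noise (chi-square of 3.69, 5.32 and 3.90 per gene at 1 h, 4 h and 24 h). Alternatives were DESeq2 1.42.0, other size factors, filters, transcript choices and sample sets, a replicate block, and each library left out.

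Named genes were the 15 largest rises and falls among called genes above the median level whose groups did not overlap, and in each of 29 lists the 4 called members with the smallest p, plus SRC and ESR1: 120 in all. Members and lists were chosen with earlier results of these data known. Further list members (for example KLF4, IL8, TNFAIP3, STAT3, MX1, S100A2, S100A6, KRT5, TIMP3 and PLAUR) and the genes under other observations were picked after their values were seen. Coordinates on GRCh37 (119 of the 120 placed) are from the reference gene table. Upstream sequences are from RefSeq (GRCh38.p14). Those of IL24, S100A8, CTGF and TINAGL1 were searched but not printed. Some genes are not reported here.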

Additional observations from a re-analysis of the deposited data

Results flagged for a closer look

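For 35 of the named genes the change from 1 h to 24 h under tamoxifen differed from the change in ethanol by the interaction test (edgeR's quasi-likelihood test, adjusted p under 0.05 over 9676 genes). The numbers in parentheses are that difference on the log2 scale, positive where the tamoxifen change was the higher. The ethanol arm had 1 library per time.

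Among secreted and immune genes the differences were IL24 (6.0), S100A8 (4.35), S100A9 (3.92), IL1B (2.33), CCL20 (1.69) and IL1A (1.67), with CLEC2B (3.78), OSMR (1.39) and DDX58 (2.57) among receptors, ligands and sensors. IL24 had the largest of the 35. Serpins and proteases followed with SERPINB3 (4.32), SERPINB1 (3.70), SERPINA1 (3.27), SERPINE2 (2.92), CTSL1 (3.45), CTSB (2.92) and MMP14 (2.43).

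Keratins stood on both sides: KRT6B (5.57), KRT16 (3.10) and KRT6A (2.15) were higher under tamoxifen, and KRT81 was lower (−1.97). Adhesion and matrix genes were higher: TNC (5.19), TGM2 (5.38), ITGA2 (2.18) and ITGB6 (2.13). The transporter NIPAL4 (3.42) stood with them. Regulators of signalling and metabolism were FOS (3.41), DUSP1 (1.68), DUSP6 (2.49), SPRED1 (1.88), NDRG1 (3.39), PFKFB3 (3.02) and HIF1A (2.37).

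Besides KRT81 the lower differences were CD24 (−1.52), CYR61 (−1.61) and HIST1H2BM (−1.69). Each of these 4 rested on lower footprints in both tamoxifen libraries at 24 h than in the ethanol library at 24 h.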

How the results depend on the processing

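Of 120 named genes under 12 alternatives, 1336 of 1433 values kept their direction and side of the threshold, 97 kept the direction and missed the threshold, and 0 reversed. Among the 30 largest changes only TAGLN lost its call (log2 −1.70, adjusted p = 0.0662, with the uninduced libraries pooled as a group). The 1648 changed genes became 971 by DESeq2 (970 of them among the 1648) and 675 to 1392 when 1 library was left out, lowest without replicate 2 at 24 h. The 770 changes of at least 2-fold became 501 with a minimum of 50 counts in 2 libraries and 512 to 848 with 1 library left out. The 161 genes beyond ethanol became 100 by DESeq2, 453 without the low count filter and 58 to 125 with 1 library left out. For ribosome loading, 0 calls became 26 by DESeq2, 34 without the filter and 0 to 1 with 1 library left out. The cause of these differences was not tested. The share of rises among changed genes was 58.19%, 54.78% with DESeq2's size factors in edgeR, and 53.16% to 69.04% with 1 library left out. Pseudocounts of 0.5 and 5 reversed 0 of the single-library ratios of named genes.

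The correlation of replicate deviations was weakly positive: 0.16 between 1 h and 4 h, 0.04 between 1 h and 24 h and 0.19 between 4 h and 24 h. Whether a replicate number marks a shared culture or day is not given in the labels. With the replicate number as a block, 2022 genes changed (all 1648 among them), 308 differed beyond ethanol and 1 in loading.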

Other observations

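Some genes were highest at 4 h of tamoxifen, a course that a comparison of 24 h with 1 h does not show, although CLDN1 and OCLN were called lower in it. In 11 genes both 4 h libraries lay above all at 1 h and 24 h and the mean at 4 h, of at least 10 CPM, was at least 2-fold above both other means, and 12 genes showed the mirror pattern. SERPINB2, a plasminogen activator inhibitor, stood at 58.8 and 120.1 CPM at 1 h, 249 and 460.2 at 4 h and 59.9 and 66.8 at 24 h. The tight junction protein OCLN was at 15.03 and 13.7, 39.6 and 41.02 and 5.56 and 6.40 CPM, beside CLDN1 with the same order of times. The epidermal transcription factor GRHL3 stood at 19.8 and 8.23, 29.3 and 34.8 and 1.24 and 1.22 CPM. The 4 h libraries were above all others in each of these.

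In other genes the footprints at 24 h were far below those at 1 h in ethanol, and the difference under tamoxifen was smaller. Under tamoxifen FST was lower at 24 h in both replicates, SERPINB2 in replicate 2 and PLAU in replicate 1. SERPINB2 went from 123 to 3.95 CPM in ethanol, and the tamoxifen change exceeded the ethanol change by 4.44 on the log2 scale (SE 0.66, adjusted p = 0.00254). PLAU, the urokinase protease, stood at 250.1 and 171 CPM at 1 h and 229 and 192 at 24 h of tamoxifen, and at 217 and 46.3 CPM in ethanol (difference 2.22, SE 0.33, adjusted p = 0.00254). For FST, the activin-binding protein follistatin, the tamoxifen libraries held 61.5 and 109 and then 54.4 and 56.4 CPM and the ethanol libraries 117 and 9.48 CPM (2.98, SE 0.48, adjusted p = 0.00417).

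Of 5 metallothioneins, which bind zinc and copper, 4 rose: MT1X (83.4 and 72.4 to 912 and 704 CPM), MT1F (5.47 and 3.84 to 12.97 and 17.4 CPM), MT2A (6205 and 3889 to 12620.0 and 9033 CPM) and MT1E (431 and 382 to 881 and 567 CPM). MT1A stood at 26.6 and 0 CPM at 1 h and 80.9 and 2.13 at 24 h and was not called. These genes are near-identical copies that can share reads. In ethanol, with 1 library per time, MT2A also went up, from 2601 to 5372 CPM. MT1X (38.8 to 98.5 CPM) and MT1E (268 to 354 CPM) went up there too, and MT1F did not (2.03 to 1.84 CPM). The tamoxifen change exceeded the ethanol change by 2.03 on the log2 scale for MT1X and 1.89 for MT1F. For MT1E the difference was 0.42 and for MT2A 0.06.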
